A study of Mus musculus with 6 samples.

Results

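The 10 genes described here encode transcription factors of the ETS family: Erg, Fli1, Ets1, Ets2, Etv6, Spi1, Elf1, Elk3, Spib and Etv5. Their chromatin was followed in a table of 10016 regions whose accessibility differed between WT and dKO cells at the corrected p of 0.05 that the authors set. A region was counted for a gene when it overlapped the gene body in the GENCODE M21 annotation, extended by 50 kb on each side, and a region in the windows of more than 1 gene went to the nearer gene start. This rule found 30 regions at 8 of the 10 genes. Under the same window 47.0% of 21951 protein-coding genes had any listed region. Here and in later counts of coding genes, a region counted for every gene whose window it met. Longer genes have longer windows, up to 334.5 kb among the 10 (Etv6), which makes any listed region more likely. No listed region lay in the windows of Spi1 and Ets2.

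All cells were mouse fetal liver cells transformed by MLL-ENL, a leukemia fusion oncogene, and were kept in interleukin 3 at 10 ng/ml. WT cells had intact Cebpa and Cebpb, and their labels name no vector. The dKO cells carried a Cebpa KO and a Cebpb KO together with GFP as the exogenous protein. Cells of the 3rd group, dKO-LAP*, had the same deletions and expressed GFP and the rat C/EBPβ isoform LAP*, and were not analysed here. Each group had 2 libraries of 50000 sorted cells. By the study's methods the cells came from mice with floxed Cebpa and Cebpb alleles, and the dKO lines were clones that had survived deletion, so that clone, vector and genotype cannot be told apart in this comparison. ATAC-seq, in which the Tn5 transposase cuts open DNA, gave the accessibility of each region as reads.

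C/EBPα and C/EBPβ are transcription factors that guide blood progenitors into the myeloid lineage. ETS factors share a winged helix-turn-helix DNA-binding domain that reads a GGAA core, and they often occupy the same enhancers as RUNX, GATA and AP-1 factors. In blood, ERG and FLI1 maintain stem and progenitor cells, and PU.1, the product of Spi1, drives myeloid and B-cell development together with C/EBP factors. ETV6 is mainly a repressor that blood stem cells need in the bone marrow.

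Sequences of 6 of the regions are shown first: the group of 3 in Erg, which holds the largest difference, the regions at Fli1 with a C/EBP string, and the Elk3 region with the largest rise. Each line gives the central 200 bases of a region on the plus strand of mm10, read from the RefSeq assembly GRCm38.p6, after the distance of the region from the start of its gene. Capitals mark matches to the motif strings searched. The Erg +149.4 kb and Fli1 +40.0 kb regions were chosen after their values had been seen, the former for its position between the other Erg sequences and the latter for its motif matches.
Erg +151.7 kb (chr16:95434612-95434811): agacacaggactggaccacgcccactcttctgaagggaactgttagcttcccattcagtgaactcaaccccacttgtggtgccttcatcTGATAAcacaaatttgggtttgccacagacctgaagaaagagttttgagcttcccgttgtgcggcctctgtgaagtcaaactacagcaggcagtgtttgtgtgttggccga
Erg +149.4 kb (chr16:95436814-95437013): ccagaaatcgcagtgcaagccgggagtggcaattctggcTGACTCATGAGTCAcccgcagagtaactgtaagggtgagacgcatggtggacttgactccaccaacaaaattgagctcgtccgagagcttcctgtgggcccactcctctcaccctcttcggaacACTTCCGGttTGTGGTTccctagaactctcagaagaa
Erg +147.1 kb (chr16:95439236-95439435): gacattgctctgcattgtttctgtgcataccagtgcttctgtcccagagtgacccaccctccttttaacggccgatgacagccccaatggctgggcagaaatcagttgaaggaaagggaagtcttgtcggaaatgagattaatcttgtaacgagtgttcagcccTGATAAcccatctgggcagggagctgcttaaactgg
Fli1 +162.0 kb (chr9:32380591-32380790): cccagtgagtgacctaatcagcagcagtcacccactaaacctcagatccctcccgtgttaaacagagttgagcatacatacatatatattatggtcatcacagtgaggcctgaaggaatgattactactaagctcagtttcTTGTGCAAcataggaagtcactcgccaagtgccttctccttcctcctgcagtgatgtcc
Fli1 +40.0 kb (chr9:32502441-32502640): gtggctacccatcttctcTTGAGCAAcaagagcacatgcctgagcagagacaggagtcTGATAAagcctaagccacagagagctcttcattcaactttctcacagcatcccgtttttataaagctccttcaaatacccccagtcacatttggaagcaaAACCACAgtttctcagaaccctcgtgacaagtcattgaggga
Elk3 +76.0 kb (chr10:93234808-93235007): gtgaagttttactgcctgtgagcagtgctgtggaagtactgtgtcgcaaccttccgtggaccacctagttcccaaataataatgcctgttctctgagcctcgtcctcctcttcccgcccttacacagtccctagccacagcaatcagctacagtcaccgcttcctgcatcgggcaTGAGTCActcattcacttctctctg
The capitals at Erg +151.7 kb and Erg +147.1 kb are GATA strings. At Erg +149.4 kb a pair of AP-1 strings lie end to end, and further on there is an ETS string followed 2 bases later by a RUNX string. Both Fli1 sequences carry a C/EBP string in capitals, and Fli1 +40.0 kb also holds a GATA and a RUNX string. The Elk3 sequence holds an AP-1 string.

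Before the comparison, the deleted genes were checked. Over Cebpa the 1 listed region stood at 9.99 in WT cells and at -0.15 in dKO cells (log2 of normalised reads), and both regions over Cebpb were also lower in dKO, as the dKO label gives. Levels in the table are given per group and not per library, so no replicate error is given and no test was made here beyond the authors' threshold for listing, whose own p-values were not used. Levels are log2 means of normalised reads over the 2 libraries of a group, as the authors' means, and a change is the dKO level minus the WT level. The 95% interval printed beside some changes is an exact binomial interval on the reads that the means stand for. It covers counting error only, and understates that error where reads are PCR copies, which are not independent molecules. Libraries contribute no spread to it. Every region was listed for differing between the same groups, so the intervals are no separate support for a change. The lowest level in either group was -0.15, shared by 46 WT and 59 dKO regions, and it was taken as the worth of 1 read in each library. No lower level occurs, so -0.15 may also stand for fewer reads. The floor of 3 reads per library stood at 1.43.

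Of the 30 regions, 21 were more accessible in dKO than in WT and 9 were less accessible. Among all 10016 listed regions 60.3% were higher in dKO, against 70.0% of the ETS gene regions. Without Erg the latter share was 59.1%, so that the excess over 60.3% was not seen without that gene. Centred on the median change of all listed regions, the share over the 30 regions was 63.3%. Centred on that of each region's own chromosome it was 53.3%, with a median change of 0.14. Centring takes the background median from every change, so the centred shares cannot be set against 60.3%. At least 2-fold higher were 19 of the 30, where 49.6% of all listed regions were, and at least 2-fold lower were 5 of the 30, where 35.9% of all were. The median change was 1.19 (quartiles -0.86 and 1.72), against 0.98 (quartiles -1.57 and 1.76) over all listed regions. The direction was not shared by the genes: every listed region was higher in dKO at Erg, Etv5, Elk3 and Elf1, every one was lower at Fli1 and Ets1, and Etv6 and Spib had both.

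**Figure D1:**
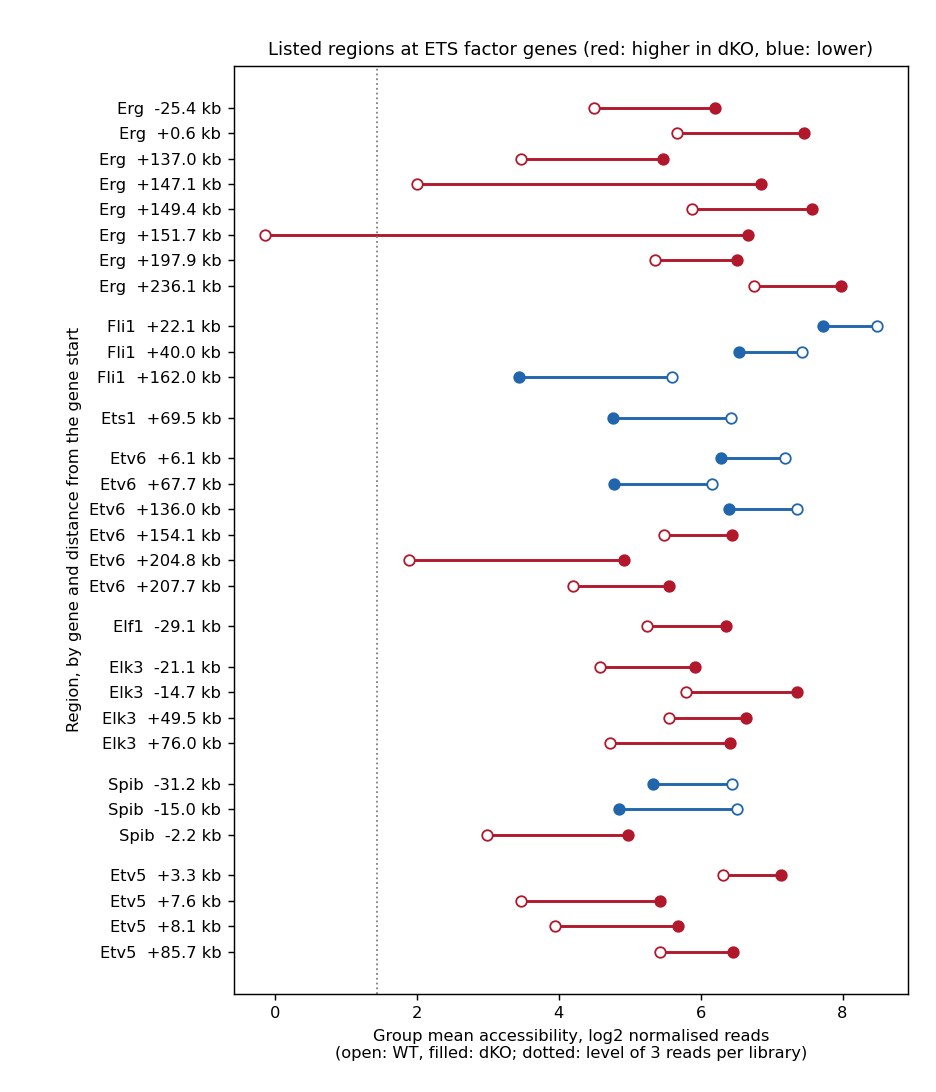
Levels of the 30 listed regions at 8 ETS factor genes, one line per region named by its gene and its distance from the gene start in kb, with the group mean in log2 normalised reads on the horizontal axis (open points WT, filled points dKO, red higher and blue lower in dKO, dotted line the level of 3 reads per library). The points are the authors' means without error; the 8 Erg lines all run to the right, the 3 Fli1 lines all run to the left, and only the Erg +151.7 kb region starts left of the dotted line.

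Erg encodes an ETS activator that hematopoietic stem cells depend on and that is an oncogene in leukemia. Its gene spans 227.4 kb on the minus strand (chr16:95359169-95586593), and all 8 of its listed regions were more accessible in dKO, with a median change of 1.75. Their changes ranged from 1.15 to 6.82, and all 8 were at least 2-fold. The 2 largest differences were in a group of 3 intronic regions within 5.0 kb, from 147.1 to 151.7 kb downstream of the gene start. The nearest annotated Erg start is that of a shorter transcript, and the 3 regions lay 19712, 22026 and 24372 bp downstream of it.

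Within this group, the region at +151.7 kb (chr16:95434551-95434873) had a WT level of -0.15, the lowest in the table, and a dKO level of 6.67. Against the floor it was at least 37.7-fold higher in dKO, a log2 change of 5.24 that does not allow for counting error. With the WT level taken as 1 read per library, the counting interval of the change was 4.95 to 9.87, so that its lower end lay below that figure. The region at +147.1 kb (chr16:95439138-95439533) went from 2.00 to 6.85, a change of 4.85 (interval 3.88 to 5.98) or 28.8-fold. Between them, the region at +149.4 kb (chr16:95436609-95437219) was already open in WT at 5.88 and reached 7.57 in dKO, a change of 1.69 (1.40 to 1.98). Thus an open WT region was flanked, at 1735 bp on one side and 1918 bp on the other, by regions with few WT reads, and the 3 dKO levels lay between 6.67 and 7.57. Of the 30 regions, 1 had a WT level at or under the floor (2.19% of all listed regions had) and 0 had a dKO level there (2.52% of all).

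At the Erg promoter, a region in the first intron began 598 bp downstream of the start site (chr16:95585250-95585995) and went from 5.66 to 7.45, a change of 1.79 (1.49 to 2.11). The region upstream at -25.4 kb went from 4.49 to 6.20, a change of 1.71 (1.24 to 2.19). In the introns, the region at +137.0 kb went from 3.47 to 5.47, a change of 2.00 (1.33 to 2.67), and the one at +197.9 kb from 5.36 to 6.51, a change of 1.15 (0.79 to 1.52). Past the end of Erg, a region at +236.1 kb in an intron of the neighbouring gene model Gm31641 went from 6.75 to 7.98, a change of 1.23 (1.01 to 1.45).

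The number and the direction of regions at Erg can be set beside other genes and beside its neighbourhood, as a description. Of the protein-coding genes under the same window, 57 (0.26%) had 8 or more listed regions, and in 21 of those 57 (36.8%) all were higher in dKO. Long genes have longer windows, and that of Erg is 327.4 kb with 24.4 listed regions per Mb. On chromosome 16, 73.0% of 463 listed regions were higher in dKO. Within 1 Mb of the Erg gene body and outside its window, 8 of 15 listed regions were higher (53.3%).

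**Figure D2:**
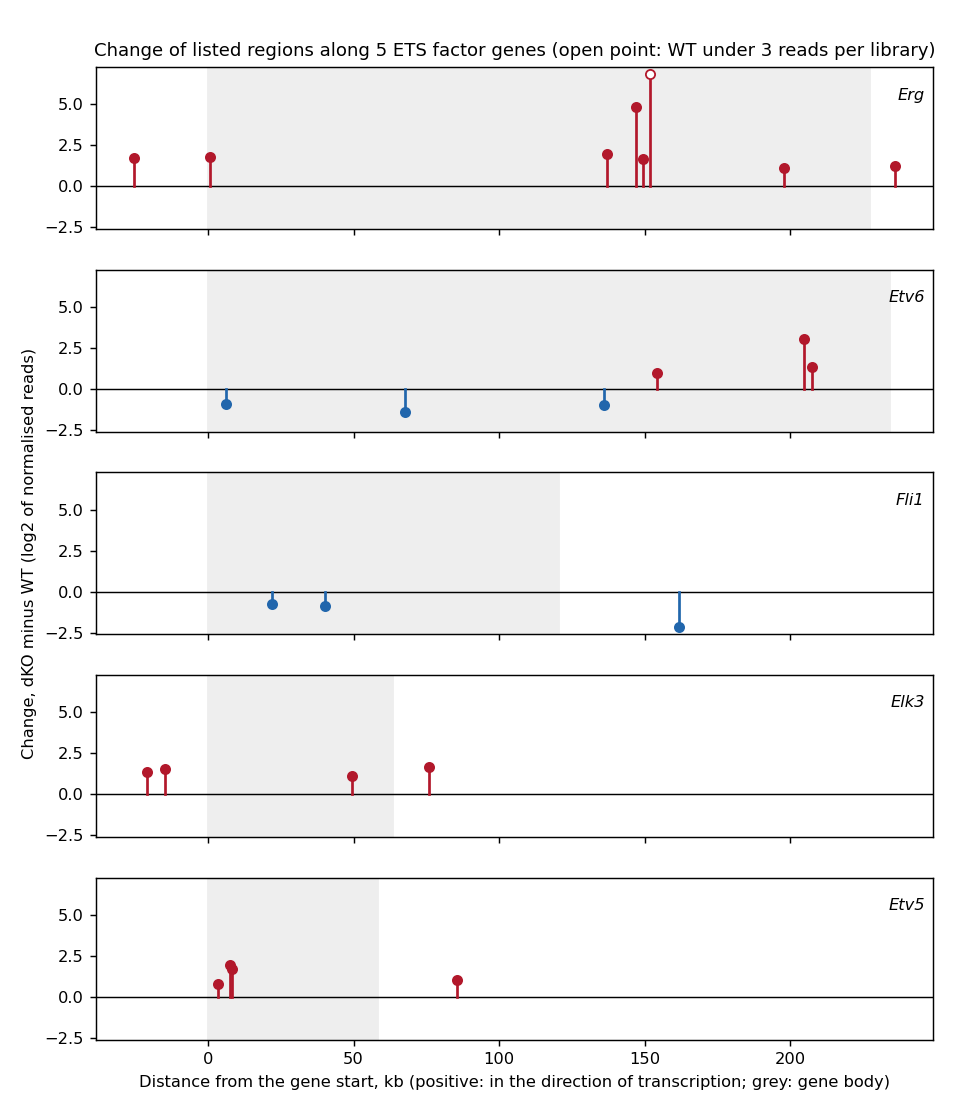
Change in accessibility, dKO minus WT on the log2 scale, of each listed region against its distance from the gene start in kb at Erg, Etv6, Fli1, Elk3 and Etv5 (grey, the gene body; red higher, blue lower; the open point marks the region with a WT level under 3 reads per library, plotted at its deposited difference of 6.82). At Erg 3 points stand between 147.1 and 151.7 kb, and at Etv6 the 3 blue points lie nearer the gene start than the 3 red ones.

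Fli1 and Ets1 lie next to each other on chromosome 9 and gave only lower regions. FLI1 is the closest relative of ERG and acts in stem cells and megakaryocytes, and ETS1 is best known from lymphocytes. The region with the largest fall at Fli1 (chr9:32380500-32380881) lay 162.0 kb downstream of the gene start, in an intron of Kcnj1, and went from 5.60 to 3.44, a change of -2.16 (-2.87 to -1.52). Inside the introns of Fli1, the region at +40.0 kb went from 7.43 to 6.54, a change of -0.89 (-1.14 to -0.64). The region at +22.1 kb, also intronic, went from 8.49 to 7.72, a change of -0.77 (-0.94 to -0.60). Both intronic regions differed by less than 2-fold, and the region in Kcnj1 by more. At Ets1 the only listed region, intronic at +69.5 kb (chr9:32705749-32706458), went from 6.42 to 4.76, a change of -1.66 (-2.11 to -1.24). Of the 2127 coding genes with 3 or more listed regions, 368 (17.3%) had lower regions only. Around Fli1 and Ets1, 4 of 5 further listed regions within 1 Mb were lower too, whereas 55.8% of the listed regions of chromosome 9 were higher.

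Etv6 had regions of both directions. The gene, which is disrupted by translocations in human leukemia, spans 234.5 kb, and it had 3 lower regions in its nearer part and 3 higher regions in its farther part. The lower regions stood at +6.1, +67.7 and +136.0 kb from the gene start, with changes of -0.90 (-1.17 to -0.63), -1.38 (-1.83 to -0.95) and -0.96 (-1.23 to -0.71). Of these, the region at +67.7 kb (chr6:134103436-134103847) had the largest fall, from 6.16 to 4.78. The higher regions stood at +154.1, +204.8 and +207.7 kb, with changes of 0.96 (0.61 to 1.33), 3.03 (2.01 to 4.34) and 1.35 (0.81 to 1.90). The region at +204.8 kb (chr6:134240523-134240844) went from 1.89 to 4.92 and was 8.17-fold higher. All 6 regions lay within the gene, and 17.4 kb separated the last lower from the first higher region. Within 1 Mb of the Etv6 gene body and outside its window 1 of 5 listed regions was higher, and on chromosome 6 49.5% of 487 were. The regions at +136.0 and +207.7 kb overlap exons of Gm17088 and Gm17089, gene models inside Etv6.

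Elk3 and Etv5 had 4 higher regions each. ELK3 is a ternary complex factor that binds DNA with serum response factor, and ETV5 is a PEA3-type activator that responds to growth factor signalling. At Elk3 the region with the largest rise (chr10:93234659-93235156) lay at +76.0 kb, in an intron of the neighbouring gene Cdk17, and went from 4.72 to 6.41, a change of 1.69 (1.27 to 2.15). The other Elk3 regions changed by 1.09 (0.74 to 1.44) at +49.5 kb, 1.57 (1.27 to 1.88) at -14.7 kb and 1.34 (0.87 to 1.83) at -21.1 kb. In the surroundings, 15 of 16 further listed regions within 1 Mb were higher, and on chromosome 10 as a whole 629 of 767 were.

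At Etv5, a region in an exon, 138 bp from an annotated Etv5 start (chr16:22436086-22436376), went from 6.32 to 7.13, a change of 0.81 (0.54 to 1.09). This was the smallest rise of the 21 higher regions. A pair of intronic regions 181 bp apart, at +7.6 and +8.1 kb, went from 3.47 to 5.42 and from 3.95 to 5.68, changes of 1.95 (1.28 to 2.62) and 1.73 (1.18 to 2.34). The intergenic region at +85.7 kb changed by 1.04 (0.68 to 1.41). Within 1 Mb of the Etv5 gene body and outside its window, 17 of 27 listed regions were higher (63.0%). With 4 or more listed regions there were 954 coding genes (4.35%), and in 392 of them (41.1%) every region was higher, as at Elk3 and Etv5. Centred on the median of their own chromosome, Etv5 had 2 higher and 2 lower regions and Elk3 3 and 1, and Elk3 kept 1 region with windows of 10 kb and 0 by the nearest start site.

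Spib encodes SPI-B, the B-cell and dendritic-cell relative of PU.1. Its 3 regions were not uniform. The nearest, at -2.2 kb (chr7:44534276-44534531), overlaps an exon of Pold1 and went from 2.98 to 4.98, a change of 2.00 (1.20 to 2.79). The region at -15.0 kb (chr7:44547100-44547360), in a Pold1 intron, went from 6.51 to 4.85, a change of -1.66 (-2.09 to -1.25), and that at -31.2 kb changed by -1.11 (-1.50 to -0.75). All 3 lay outside Spib and nearer to the start of another gene, at -87 and 1373 bp from starts of Pold1, the DNA polymerase delta gene, and at -8712 bp from that of Napsa, so that assignment to Spib rests on the window alone. With windows of 10 kb only the higher region counted. Elf1, a lymphoid and myeloid ETS activator, had a single region at -29.1 kb (chr14:79451608-79452093), which covers the start of Kbtbd6 and went from 5.24 to 6.36, a change of 1.12 (0.73 to 1.51).

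No listed region lay within 50 kb of Spi1 (chr2:91082390-91115756) or Ets2 (chr16:95702075-95721051). The nearest one to Spi1 was 212.7 kb from the gene body and went from 1.81 to 4.41. The nearest to Ets2, a factor that acts with AP-1 in macrophages, was 83.7 kb away and went from 5.50 to 3.32. The table names only regions past the threshold, and its smallest absolute change was 0.49, so that a missing entry does not show that accessibility at these genes was the same in both groups. Among regions that did count, the farthest from its gene body was the one in Kcnj1, 41.3 kb from Fli1. The nearest one that did not count lay 56.0 kb from Elk3 (chr10:93190720-93191398) and went from 5.64 to 6.55.

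**Figure D3:**
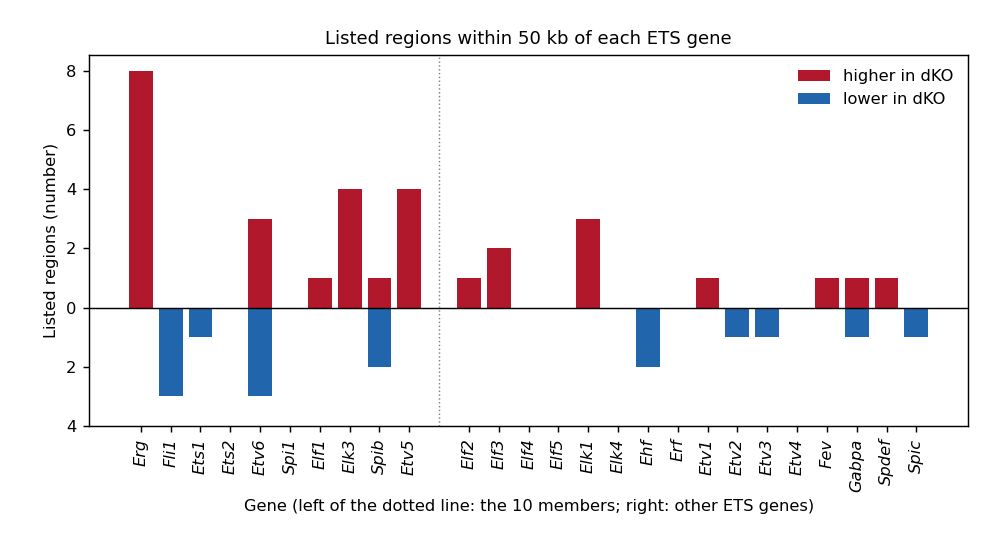
Number of listed regions within 50 kb of each of 26 ETS genes, higher in dKO upward in red and lower in dKO downward in blue, with the 10 genes described here left of the dotted line and 16 further ETS genes right of it. Erg has the tallest red bar with 8 regions, Fli1 and Etv6 have 3 lower regions each, and Ets2 and Spi1 have no bar.

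The other 16 ETS genes had 16 listed regions at 11 genes, 10 higher and 6 lower (62.5% higher, close to the 60.3% over all listed regions). None of them had more than 3 regions. Elk1, a further ternary complex factor, had 3 higher regions, and Ehf, an epithelial ETS factor, had 2 lower ones with changes of -3.70 and -4.22. At Gabpa, the DNA-binding subunit of GABP, 1 region was higher and 1 was lower. No region was assigned to Elf4, Elf5, Elk4, Erf or Etv4.

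In position relative to start sites the ETS gene regions were close to the background: 6 of 30 (20.0%) lay within 1 kb of the start of any gene, against 19.1% of all listed regions. Of the 30, 20 were intronic, 5 overlapped an exon of some gene and 5 were intergenic, and 19 lay inside the body of the ETS gene itself, which the window rule favours. Those within 1 kb of a start site of their own gene were 2, the Erg and the Etv5 promoter regions. The nearest start site belonged to the ETS gene itself for 11 regions and to another gene for 19, which limits how surely a region can be tied to the ETS gene. Median width was 461 bp (256 to 923 bp), against 400 bp over all listed regions. Median levels were 5.52 in WT and 6.38 in dKO, against 5.31 and 5.59 over all listed regions.

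Motif strings were counted in the central 200 bp of each region on both strands, as a description of letters and not of binding. The C/EBP string (TTACNNAA or TTGCNNAA) matched 3 of 9 lower ETS gene regions and 2 of 21 higher ones, against 40.8% of all lower and 20.1% of all higher listed regions. The lower ones were both Fli1 sequences shown above and the Etv6 region at +136.0 kb, and the higher ones were the Erg regions at +197.9 and +236.1 kb. The AP-1 string (TGACTCA or TGAGTCA) occurred in 4 of 21 higher and 0 of 9 lower regions, against 26.6% and 4.65% of all. Of these 4, 3 were Elk3 regions, at +76.0, -14.7 and -21.1 kb, and the fourth was the Erg region at +149.4 kb.

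The GATA string (AGATAA or TGATAA) was in 6 of 21 higher and 1 of 9 lower regions, against 14.9% and 10.2% of all. In the higher ones it lay in the Erg regions at +151.7 and +147.1 kb, the Etv6 regions at +154.1 and +207.7 kb, the Elk3 region at +49.5 kb and the Etv5 region at +7.6 kb. The RUNX string (AACCACA) was in 2 higher and 1 lower region (13.8% and 9.02% of all). For ETS factors themselves, the PU.1 string (GAGGAAGT) was in 2 higher and 0 lower regions (13.1% and 3.37% of all), at Elk3 -21.1 kb and Etv5 +3.3 kb. The class I ETS string (CCGGAAGT), which shares GGAAGT with that of PU.1, was in the Erg region at +149.4 kb alone (1.04% of all higher regions). Over whole regions the GATA string was in 33.3% of higher ETS gene regions and 31.1% of all higher regions, and the C/EBP string in 38.1% of higher and 44.4% of lower ETS gene regions (35.3% and 54.3% of all). In the central 100 bp the GATA string was in 23.8% of higher ETS gene regions and 8.20% of all higher regions, and the C/EBP string in 0 of 21 higher and 2 of 9 lower ETS gene regions (11.0% and 26.6% of all). The shares were not tested.

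**Figure D4:**
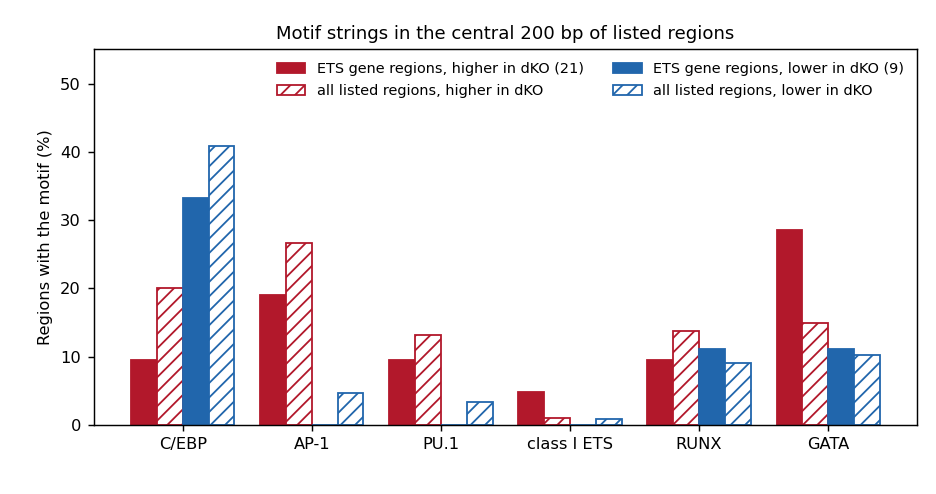
Share of regions, in percent, whose central 200 bp hold each of 6 motif strings, for the 21 higher (solid red) and 9 lower (solid blue) regions at ETS factor genes and for all listed higher (hatched red) and lower (hatched blue) regions. For C/EBP the blue bars are taller than the red ones in both sets, and AP-1 occurs in none of the 9 lower ETS gene regions.

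The table also allows a limited check of the cell type. Within 10 kb of the gene body, the myeloid progenitor genes Ptprc, Kit, Itgam, Mpo and Elane had 6 listed regions, 5 higher in dKO and, at Mpo, 1 lower, and Fcgr3 had none. Over all listed regions 60.3% were higher in dKO. Of the lymphoid genes reported, Pax5 had 4 regions, all lower in dKO, and Cd3e had none. Of the erythroid and megakaryocytic genes, Itga2b had 1 higher region, and Gata1 and Klf1 had none. At Pax5 the highest level over the 4 regions was 6.21 in WT and 3.86 in dKO. The region at Kit went from 1.26, under the floor, to 4.52, that at Itga2b from 1.93 to 5.52, that at Ptprc from 1.93 to 4.87, and that at Mpo from 6.51 to 5.38. Markers without a listed region have no level here, so the list as a whole cannot show the cell type. The part of these differences in the ETS gene values was not tested. In bulk libraries, a difference in the share of cells with an open region and a difference in openness per cell cannot be told apart.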

How the data were processed

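ATAC-seq reads were, per the study's methods and the submitters' processing notes, preprocessed with PiGx, aligned to mm10 with Bowtie2, called as peaks with MACS2 and compared with DiffBind 2.14.0. The handling of duplicates, of the Tn5 offset and of peak merging is not given in the sources used here. Kept duplicates would raise the reads of strongly amplified regions, and an uncorrected offset would shift region edges by a few bases. The authors deposited log2 group means of normalised reads for WT and dKO, over 2 libraries each. The deposited files were 2 with the same content, so that 1 distinct table was analysed, and values for dKO-LAP* were not analysed here. The table also holds the authors' fold change, p-value and false discovery rate (FDR) per region, which were not used other than that listing implies a corrected p of 0.05. Library depth is not in the table. The low means fell on steps of whole reads (within 0.006 in log2, 93.6% of 267 WT and 100.0% of 281 dKO values up to 3 reads, where steps cover 10.5% and 6.57% of the axis), which set the worth of a read. A level counted as at the floor within 0.01 of it.

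Regions were assigned to genes with GENCODE M21 and placed by the nearer edge. Distances run from the 5′ end of the gene record, positive in the direction of transcription. Bases came from RefSeq GRCm38.p6, whose chromosomes are those of mm10. Counts, medians and exact Clopper-Pearson intervals were computed in Python 3.11.15 with pandas 2.3.3, numpy 2.4.6 and scipy 1.17.1, and the assignment was tested on simulated data. Named in the text were, by rule, each region within 1 kb of a start site of its gene, each with a group at the floor, the largest rise and fall of each gene, and those next to the 50 kb limit. The remaining regions are given to account for all 30. The genes, lists and motifs were chosen with earlier results of these data known. A marker gene from the lists is not reported here. Alternatives were other windows, nearest start site, size and level filters, centring, and leaving out each gene.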

Additional observations from a re-analysis of the deposited data

How the results depend on the processing

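Assigning each region to the nearest start site of any transcript left 11 regions at 3 genes, of which 90.9% were higher with a median change of 1.73. Under it Fli1, Ets1, Elk3, Spib and Elf1 had 0 regions, so their directions were lost, and Etv6 kept 1, lower, while Erg kept 6 and Etv5 4, all higher. Centring moved the median change to 0.21 on all listed regions and to 0.14 on the region's own chromosome, and the share higher to 63.3% and 53.3%. It subtracts the background median, 0.98 over all listed regions, so these values cannot be set against the uncentred 60.3% of the background. After centring on the own chromosome, Erg had 6 higher and 2 lower regions, Elk3 3 and 1, and Etv5 2 and 2. Centring on all listed regions moved the balance of higher minus lower regions at Etv6 from 0 to -2 and at Etv5 from 4 to 2. Promoter regions numbered 1 rather than 2 when only the start of the gene record was used. With 10 kb on each side the 16 regions of the other ETS genes became 8 and the 13 of the partner genes became 6, and Spib reversed from a balance of higher minus lower regions of -1 to 1. Leaving out each gene in turn gave a share higher of 59.1% (without Erg) to 77.8% (without Fli1). Windows of 10 and 100 kb gave 21 and 42 regions, both with 71.4% higher, but Elk3 went from 4 regions to 1 and 10, all higher, Elf1 lost its only region at 10 kb, and Ets2 gained 1 higher and 1 lower region at 100 kb. At 100 kb Etv5 had 6 higher and 1 lower region, and Spib had 1 higher and 3 lower. Regions with a motif string in the central 200 bp, whole region and central 100 bp numbered 5, 12 and 2 for C/EBP, 4, 4 and 1 for AP-1, 2, 4 and 1 for PU.1, 1, 1 and 0 for class I ETS, 3, 5 and 1 for RUNX, and 7, 9 and 6 for GATA. No paired analysis was possible because the levels analysed were group means, which also prevented leaving out a replicate. The cause of these shifts was not tested.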

Other observations

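Genes whose products share blood enhancers with ERG and FLI1 were counted under the same 50 kb rule. Together the 5 genes had 13 listed regions, 11 higher and 2 lower in dKO, with a median change of 1.58, where 60.3% of all listed regions were higher with a median of 0.98. Gata2, which encodes a zinc finger factor of stem and mast cells, had 6 regions, all higher, with changes from 1.11 to 5.27. Runx1 had 4, all higher, from 1.08 to 2.38. Of the coding genes with 4 or more listed regions, 41.1% had higher regions only. Lyl1 had 1 higher and 2 lower regions, and no listed region lay in the windows of Tal1 and Lmo2. Runx1 lies on chromosome 16, as Erg does, where 73.0% of listed regions were higher, and Gata2 lies on chromosome 6, where 49.5% were.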
